A study of Homo sapiens with 6 samples.

Results

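Amino acid and peptide transporters are the membrane proteins that carry free amino acids and short peptides into, out of and within cells. The set described here held 41 genes, chosen by symbol from the 27685 genes of the count table, and all 41 were found in it. They cover the carriers of the intestinal brush border and basolateral membrane, carriers used by most growing cells, carriers better known from brain, liver or kidney, lysosomal carriers and mitochondrial carriers. The cells were Caco-2, an established human colorectal tumour line that can take on features of absorptive enterocytes, and polyA RNA was sequenced. The libraries of the first group are titled hFABP1as, taken here as FABP1 antisense, with the genotype given as FABP1 knockdown. Those of the second came from mock-transfected cells with pcDNA3, a mammalian expression vector, with the genotype given as WT, and are called the vector control. Each group had 3 libraries, numbered 2, 3 and 4 in the column headers, and all cells were grown in the same medium with serum, vitamins and non-essential amino acids. Neither the number of transfected lines or clones behind a group nor the use of separate cultures is stated in the labels. A difference between lines and an effect of the construct thus cannot be told apart, and the spread behind each p-value may be technical. The libraries labelled FABP1 antisense are called antisense-labelled libraries.

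In the small intestine, dietary protein reaches the enterocyte as free amino acids and as di- and tripeptides. Sodium- or proton-coupled carriers of the apical brush border take these up, and exchangers and facilitated carriers of the basolateral membrane pass amino acids on to the blood. Several of these carriers are heteromers, in which a light chain (an SLC7 protein) does the transport and a heavy chain (SLC3A1 or SLC3A2) brings it to the cell surface. Inside the cell, lysosomal carriers return amino acids from protein breakdown to the cytosol, and mitochondrial carriers feed the urea cycle and the malate-aspartate shuttle.

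Total counts were 41768687 to 55153051 in antisense-labelled libraries and 40351394 to 57979037 in the vector control. FABP1 itself (gene ID 2168) had 134, 147 and 122 CPM (counts scaled to the effective library size) in antisense-labelled libraries, against 138, 102 and 121 CPM in the vector control. These values overlapped. The difference of 0.16 on the log2 scale (SE 0.12, interval at 95% from -0.10 to 0.42) did not pass the quasi-likelihood test of edgeR, adjusted by Benjamini-Hochberg (adjusted p = 0.268). A lower FABP1 count was thus not seen, and the group is named by its label throughout. No source used here states whether strand was used in counting. RNA of a construct and RNA of the gene thus cannot be told apart in this count. Of 14 intestinal epithelial markers 13 were expressed well enough to be tested, and CDX1 was close to 0. Their summed level was 15700 to 18400 CPM in antisense-labelled libraries and 13500 to 16400 CPM in the vector control. Markers of fibroblasts (6 of 10 tested) summed to 32.2 to 36.2 CPM in antisense-labelled libraries and 39.5 to 42.3 CPM in the vector control. Those of leukocytes (5 of 8 tested) summed to 63.9 to 67.2 CPM in antisense-labelled libraries and 44.4 to 48.6 CPM in the vector control. Those of endothelium (2 of 5 tested) summed to 2.39 to 2.67 CPM in antisense-labelled libraries and 0.833 to 1.42 CPM in the vector control. COL1A2, DCN, THY1, PTPRC, CDH5, KDR and CLDN5 had 0 counts in every library, but other markers on these lists were expressed and moved in opposite directions, which the sums hide. LUM was 139-fold higher and CSF1R 12.2-fold higher, PDGFRA was 55.1-fold lower and CD14 5.20-fold lower, and COL1A1 had 7.09 to 9.12 CPM in antisense-labelled libraries and 7.85 to 9.12 CPM in the vector control. Counts were enough for testing LUM and CSF1R only through antisense-labelled libraries, and PDGFRA only through the vector control. The part of these markers in the results was not tested.

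Of the 41 transporter genes, 40 had counts enough to be tested, 16 were higher in antisense-labelled libraries, 11 were lower and 13 passed in neither direction (adjusted p under 0.05 in edgeR over all 14640 genes tested). Among all genes tested 27.7% were called higher, 27.3% lower and 55.0% in either direction. The members' share called lower was 27.5%, close to that of all genes, and their share called higher, 40.0%, was above it. At least a 2-fold change was called upward in 5 members (SLC6A20, SLC7A8, SLC3A1, SLC6A19 and SLC7A11) and downward in 2 (SLC1A4 and SLC1A2), against 8.80% and 6.12% of all genes tested. SLC6A19 and SLC1A2 passed the filter on low counts only through the group where each was high, so nothing is read from their place in these counts, which are 4 and 1 over the 38 members above the filter in both groups. The groups did not overlap in 29 of the 40 members, against 62.7% of all genes tested. The median log2 fold change of the tested members was 0.03, against 0.01 over all genes tested, and the median of its absolute value was 0.45 against 0.36. Together the members took 0.400, 0.395 and 0.415% of all counts in antisense-labelled libraries, against 0.333, 0.346 and 0.337% in the vector control. In bulk RNA, fewer cells of a type and less RNA per cell cannot be told apart.

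**Figure D1:**
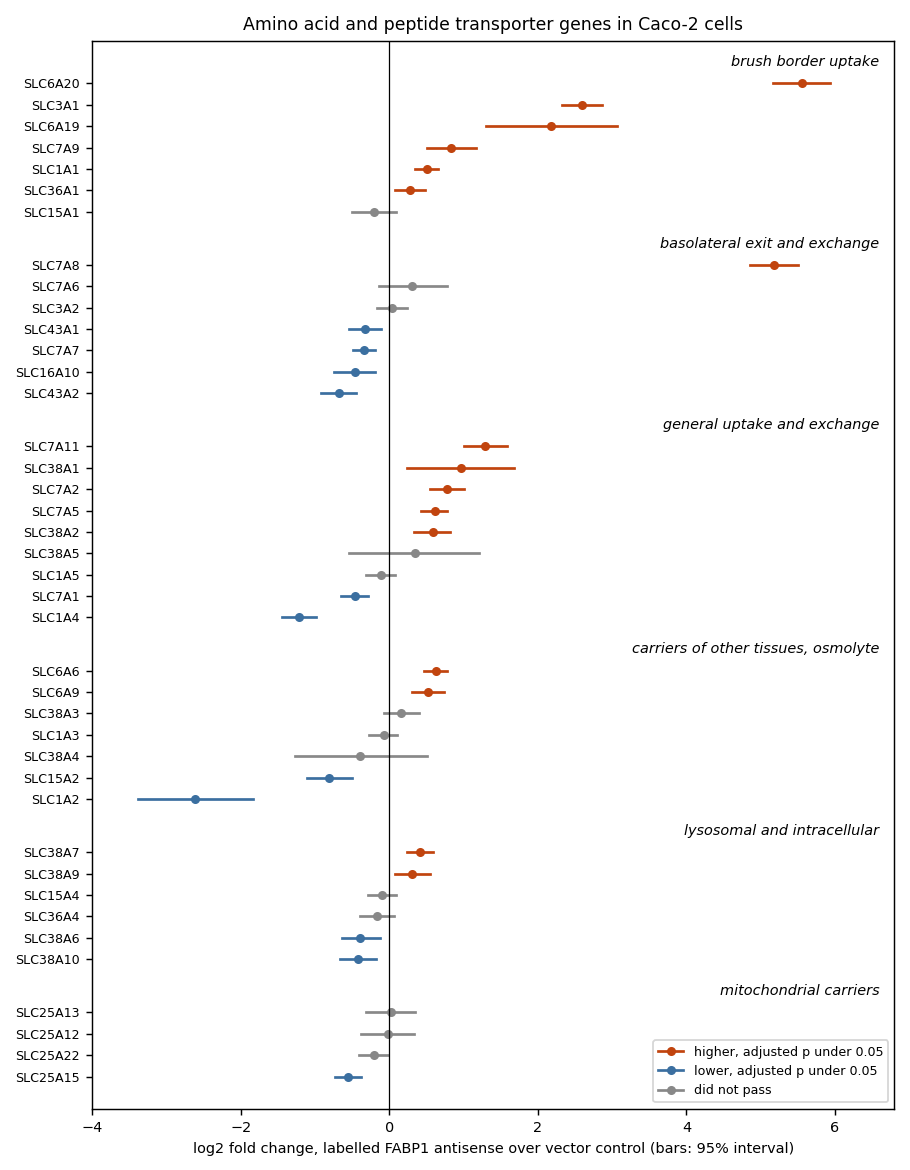
Log2 fold change of the 40 tested transporter genes (points) with 95% intervals (bars), antisense-labelled libraries over vector control, 3 libraries each, in rows by role. SLC6A20 (5.55) and SLC7A8 (5.18) lie far to the right of all other members, and SLC1A2 (-2.62) farthest to the left.

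Per kilobase of the longest reference transcript, a few genes of general uptake and of basolateral exchange made up the top of the set. In antisense-labelled libraries, SLC7A5 stood at 142 CPM per kb, SLC3A2 at 135, SLC1A5 at 112, SLC38A2 at 98.6 and SLC7A7 at 69.5. In the vector control the same 5 genes led, with SLC3A2 at 131, SLC1A5 at 122, SLC7A5 at 93.2, SLC7A7 at 87.9 and SLC38A2 at 66.1 CPM per kb. Of the 10 highest members, 9 were shared between the groups, SLC38A1 being among them only in antisense-labelled libraries and SLC25A15 only in the vector control. The brush border carriers lay well below: SLC3A1 stood at 4.65 CPM per kb in antisense-labelled libraries and 0.776 in the vector control, and SLC6A19 at 0.207 in antisense-labelled libraries and 0.0450 in the vector control. With the median transcript length in place of the longest, SLC1A5 led in both groups, so the order at the very top depends on the transcript assumed.

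Of 8 genes of brush border uptake 7 were tested, 6 rose and 0 fell, where 27.7% of all genes tested were called higher and 27.3% lower. The median log2 fold change was 0.83. SLC6A19 passed the filter on low counts only through antisense-labelled libraries; among the other 6 tested genes 5 rose. The summed level of all 8 was 164 to 175 CPM in antisense-labelled libraries and 96.8 to 102 CPM in the vector control. The intestinal epithelial markers, like the members, were chosen with earlier results of these data known. Of 13 tested, 9 were higher and 1 lower. Among those higher, GPA33 and SI passed the filter on low counts only through antisense-labelled libraries. The part of these markers in the result was not tested.

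The largest rise of the whole set was that of SLC6A20 (gene ID 54716), a sodium- and chloride-coupled carrier of proline and other imino acids. It had 30.0, 30.1 and 30.8 CPM in antisense-labelled libraries, against 0.504, 0.906 and 0.559 CPM in the vector control. All 3 libraries of the first group lay at almost the same level and far above the second. The gene was 47.0-fold higher (log2 fold change 5.55, SE 0.17, edgeR adjusted p = 4.44e-08). SLC6A19 (gene ID 340024), the sodium-coupled carrier of neutral amino acids that is defective in Hartnup disease, had 1.14, 1.32 and 0.747 CPM in antisense-labelled libraries, against 0.226, 0.147 and 0.326 CPM in the vector control. Its groups did not overlap (log2 fold change 2.18, SE 0.39, edgeR adjusted p = 0.00147). However, it had the lowest mean CPM of all tested members in the vector control and passed the filter only through antisense-labelled libraries.

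The promoter windows of this related pair, from 250 bases before to 50 bases after the annotated start, are shown because both genes rose and both windows hold the letters TTTATNG, a core of sites bound by the intestinal factor CDX2. Sequences are from RefSeq on GRCh38.p14, 5′ to 3′ on the gene's strand, chr3:45796487-45796786 on the minus strand and chr5:1201345-1201644 on the plus strand. Capitals mark matches to that motif on either strand, which in SLC6A19 overlaps the TATA box letters TATAAA.
SLC6A20: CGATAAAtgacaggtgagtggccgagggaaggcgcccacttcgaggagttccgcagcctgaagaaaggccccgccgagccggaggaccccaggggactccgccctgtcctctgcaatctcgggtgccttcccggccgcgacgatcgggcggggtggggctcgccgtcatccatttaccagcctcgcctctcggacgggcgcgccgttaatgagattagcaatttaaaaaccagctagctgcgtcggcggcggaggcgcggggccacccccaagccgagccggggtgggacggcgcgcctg
SLC6A19: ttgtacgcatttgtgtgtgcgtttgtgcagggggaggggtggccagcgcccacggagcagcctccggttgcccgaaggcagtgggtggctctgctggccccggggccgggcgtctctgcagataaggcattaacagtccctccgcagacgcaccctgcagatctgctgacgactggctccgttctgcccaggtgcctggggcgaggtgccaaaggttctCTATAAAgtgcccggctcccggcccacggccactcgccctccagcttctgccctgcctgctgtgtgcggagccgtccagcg
The match began at position -250 in SLC6A20, at the far edge of the window, and at -31 in SLC6A19, counted from the annotated start. TTTATNG was found on either strand in 3 of 35 member promoters, those of SLC6A20, SLC6A19 and SLC38A4, and in 10.1% of 27305 promoter windows of the same length, so it was not more common among the members. SLC38A4, which holds it too, did not pass the test. CDX2 had 164 CPM in antisense-labelled libraries and 77.0 CPM in the vector control on average (log2 fold change 1.09, SE 0.08). A part of CDX2 in the change of either gene was not tested.

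SLC3A1 and SLC7A9 encode the heavy chain (rBAT) and the light chain of the apical exchanger of cystine and dibasic amino acids, the carrier affected in cystinuria. SLC3A1 (gene ID 6519) had 13.0, 14.4 and 14.4 CPM in antisense-labelled libraries, against 2.05, 2.52 and 2.38 CPM in the vector control, or 6.04-fold higher (log2 fold change 2.59, SE 0.12, edgeR adjusted p = 4.18e-07). SLC7A9 (gene ID 11136) had 12.7, 14.2 and 11.7 CPM in antisense-labelled libraries, against 6.79, 6.03 and 8.87 CPM in the vector control, or 1.78-fold higher (log2 fold change 0.83, SE 0.15, edgeR adjusted p = 0.00147). Neither gene's groups overlapped, and the 95% intervals of the log2 fold changes, 2.33 to 2.86 for the heavy chain and 0.50 to 1.17 for the light chain, did not overlap. In reads per kb, the ratio of light to heavy chain was 1.66, 1.68 and 1.39 in antisense-labelled libraries, against 5.62, 4.05 and 6.34 in the vector control. SLC3A1 shares exons with PREPL on the opposite strand, and no source used here states whether strand was used in counting. PREPL had 83.3, 53.5 and 55.9 CPM in antisense-labelled libraries, against 51.7, 98.7 and 81.8 CPM in the vector control, with overlapping groups (log2 fold change -0.27, SE 0.24).

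Smaller rises were seen for the other apical carriers of free amino acids. SLC1A1 (gene ID 6505), the epithelial glutamate and aspartate carrier, had 55.2, 56.8 and 59.6 CPM in antisense-labelled libraries, against 39.3, 41.9 and 39.9 CPM in the vector control (log2 fold change 0.50, SE 0.07, edgeR adjusted p = 3.68e-04). SLC36A1 (gene ID 206358), a proton-coupled carrier of small amino acids, had 42.3, 46.5 and 49.3 CPM in antisense-labelled libraries, against 35.5, 37.7 and 40.5 CPM in the vector control (log2 fold change 0.28, SE 0.09, edgeR adjusted p = 0.0222). Both pairs of groups were separate, but SLC36A1 no longer passed in 3 of the 6 fits with 1 library removed (antisense-labelled libraries 3 and 4, and vector control library 2, with edgeR adjusted p = 0.0663, 0.0781 and 0.0891). The peptide carrier SLC15A1 (PEPT1, gene ID 6564) had 9.69, 10.1 and 8.16 CPM in antisense-labelled libraries, against 12.4, 10.6 and 9.29 CPM in the vector control. These groups overlapped, with a log2 fold change of -0.21 (SE 0.13, 95% interval -0.51 to 0.09, edgeR adjusted p = 0.204). SLC6A14, a carrier of neutral and cationic amino acids, had 0 counts in all 6 libraries, which allows up to 0.0211 CPM in antisense-labelled libraries and 0.0212 CPM in the vector control (3 counts over a group, counting error only).

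**Figure D2:**
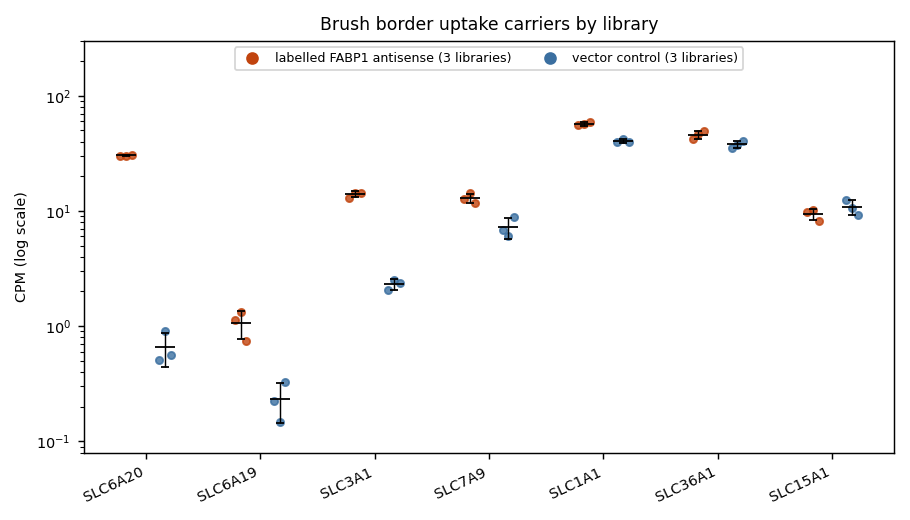
CPM (log axis) of the 7 tested brush border carriers in each antisense-labelled library (orange, left of each pair) and each vector control library (blue), with mean and SD (black, n = 3). SLC6A20, SLC6A19 and SLC3A1 are separated most, SLC7A9, SLC1A1 and SLC36A1 by less, and SLC15A1 overlaps.

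Proteins that work beside these carriers moved in different directions. Of 8 tested partners 3 rose and 4 fell. TMEM27, or collectrin, which partners SLC6A19 and related carriers in kidney, had 3.76, 4.41 and 3.43 CPM in antisense-labelled libraries, against 1.08, 0.563 and 0.652 CPM in the vector control (log2 fold change 2.31, SE 0.26). It stood above the vector control in every antisense-labelled library. SLC9A3, the sodium-proton exchanger that keeps up the proton gradient for peptide uptake, rose by 0.59 (SE 0.09) on the log2 scale. Among 13 tested peptidases of the brush border and cytosol, 8 rose (61.5%) and 2 fell (15.4%), with a median of 0.45. Of those that rose, NAALADL1 passed the filter on low counts only through antisense-labelled libraries. DPP4 fell, with means of 162 CPM in antisense-labelled libraries and 309 CPM in the vector control (log2 fold change -0.93). GGT1 fell too (-0.94). The summed level of all 14 peptidases was 604 to 660 CPM in antisense-labelled libraries and 638 to 657 CPM in the vector control. The 4 largest changes among peptidases whose mean log2 CPM reached 1 were rises. MEP1A, a meprin subunit, changed by 3.41, the proline-specific XPNPEP2 by 2.31, aminopeptidase N (ANPEP) by 1.96 and the dipeptidase DPEP1 by 1.72 on the log2 scale.

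Of 7 tested genes of basolateral exit and exchange, 4 fell, 1 rose and 2 did not pass, where 27.3% of all genes tested were called lower and 27.7% higher. The median log2 fold change was -0.33, and the 1 gene that rose had the second largest change of the whole set. SLC7A8 (gene ID 23428), the light chain LAT2 of a neutral amino acid exchanger, had 28.9, 28.2 and 24.6 CPM in antisense-labelled libraries, against 0.729, 0.612 and 0.908 CPM in the vector control. It was 36.2-fold higher with groups far apart (log2 fold change 5.18, SE 0.14, edgeR adjusted p = 3.38e-08). SLC7A7 (gene ID 9056), the light chain that exports cationic amino acids and is defective in lysinuric protein intolerance, had 179, 161 and 169 CPM in antisense-labelled libraries, against 212, 216 and 216 CPM in the vector control. It fell by 0.34 on the log2 scale (SE 0.07, edgeR adjusted p = 0.00236), with no overlap. SLC7A7 and SLC7A8 lie near each other in gene order, with 13 tested genes between them, and moved in opposite directions.

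Their most upstream promoter windows are shown for comparison of this neighbouring pair. RefSeq lists 4 starts for SLC7A8 and 3 for SLC7A7, and the counts do not tell which start is used. The windows are chr14:23183611-23183910 and chr14:22819742-22820041 on GRCh38.p14, both on the minus strand, printed 5′ to 3′.
SLC7A8: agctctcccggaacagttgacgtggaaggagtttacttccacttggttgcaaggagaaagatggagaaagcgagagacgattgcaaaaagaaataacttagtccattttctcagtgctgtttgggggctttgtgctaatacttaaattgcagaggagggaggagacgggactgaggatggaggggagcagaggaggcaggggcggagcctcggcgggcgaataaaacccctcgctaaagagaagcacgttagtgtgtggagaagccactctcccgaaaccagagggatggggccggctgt
SLC7A7: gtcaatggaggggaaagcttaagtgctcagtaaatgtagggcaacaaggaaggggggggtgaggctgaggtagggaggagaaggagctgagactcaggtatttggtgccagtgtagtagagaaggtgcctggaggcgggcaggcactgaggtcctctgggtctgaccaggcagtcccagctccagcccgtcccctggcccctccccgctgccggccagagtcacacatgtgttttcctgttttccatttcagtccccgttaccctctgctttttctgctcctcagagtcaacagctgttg
Neither window held any of the motifs searched, so no letters are in capitals. The SLC7A8 window had 13 CpG dinucleotides and 53.0% GC, and the SLC7A7 window 5 CpG and 57.7% GC, against a median GC of 66.7% over the 35 member windows and 58.3% over all windows.

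The heavy chain that both light chains need, SLC3A2 (CD98 heavy chain, gene ID 6520), did not pass. It had 330, 295 and 274 CPM in antisense-labelled libraries, against 288, 270 and 319 CPM in the vector control (log2 fold change 0.04, SE 0.09, 95% interval -0.17 to 0.24, edgeR adjusted p = 0.763). Its groups overlapped. In reads per kb, the ratio of SLC7A8 to SLC3A2 was 0.0461, 0.0505 and 0.0473 in antisense-labelled libraries, against 0.00133, 0.00119 and 0.00150 in the vector control. For SLC7A7 it was 0.492, 0.497 and 0.561 in antisense-labelled libraries, against 0.667, 0.727 and 0.615 in the vector control. Despite its large rise, SLC7A8 thus remained a minor partner beside SLC7A7 by this measure. The summed ratio of 5 light chains (SLC7A5, SLC7A6, SLC7A7, SLC7A8 and SLC7A11) to SLC3A2 was 1.82, 1.92 and 2.07 in antisense-labelled libraries, against 1.65, 1.63 and 1.60 in the vector control.

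**Figure D3:**
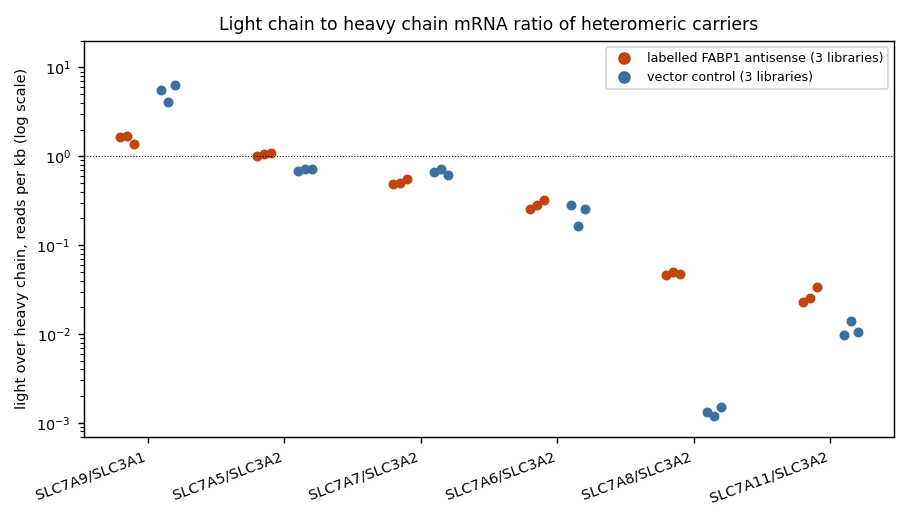
Ratio of light chain to heavy chain mRNA in reads per kb of the longest reference transcript (log axis), by library, with antisense-labelled libraries in orange and the vector control in blue. SLC7A9/SLC3A1 is lower and SLC7A8/SLC3A2 higher in all 3 antisense-labelled libraries.

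The 3 facilitated carriers, which let amino acids leave the cell without exchange, were lower. SLC43A2 (gene ID 124935), a facilitated carrier of branched-chain amino acids and phenylalanine, had 81.2, 77.8 and 67.9 CPM in antisense-labelled libraries, against 118, 109 and 138 CPM in the vector control (log2 fold change -0.68, SE 0.10, edgeR adjusted p = 6.25e-04). Its relative SLC43A1 averaged 14.6 ± 1.05 CPM in antisense-labelled libraries and 18.4 ± 1.52 CPM in the vector control, both with SD and n = 3. SLC16A10, the carrier of aromatic amino acids, averaged 6.01 ± 0.682 CPM in antisense-labelled libraries and 8.36 ± 0.689 CPM in the vector control (SD, n = 3 each). Both fell, by 0.33 and 0.47 on the log2 scale, and the groups of all 3 genes were separate. The call for SLC43A1 was lost without antisense-labelled library 2 (edgeR adjusted p = 0.0595). SLC7A6, the other light chain for cationic amino acids, had 241, 235 and 252 CPM in antisense-labelled libraries, against 230, 125 and 231 CPM in the vector control. Vector control library 3 stood apart, and the gene did not pass (log2 fold change 0.31, SE 0.20, edgeR adjusted p = 0.219), the log2 fold change being 0.07 without that library (edgeR adjusted p = 0.420).

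Among carriers of general uptake and exchange, 5 of 9 tested genes rose, 2 fell and 2 did not pass, with a median log2 fold change of 0.58, where 27.7% of all genes tested were called higher and 27.3% lower. SLC7A11 (gene ID 23657), the light chain xCT that takes up cystine in exchange for glutamate, had 32.5, 32.2 and 39.7 CPM in antisense-labelled libraries, against 12.2, 16.3 and 14.4 CPM in the vector control. It was 2.44-fold higher with no overlap (log2 fold change 1.29, SE 0.13, edgeR adjusted p = 5.08e-05). SLC7A5 (gene ID 8140), the light chain LAT1 for large neutral amino acids, had 674, 642 and 618 CPM in antisense-labelled libraries, against 404, 399 and 465 CPM in the vector control (log2 fold change 0.61, SE 0.08, edgeR adjusted p = 2.03e-04). It was 1.52-fold higher, and its ratio to SLC3A2 in reads per kb was 0.999, 1.07 and 1.10 in antisense-labelled libraries, against 0.687, 0.724 and 0.715 in the vector control. SLC7A2 (gene ID 6542), a carrier of arginine and other cationic amino acids, had 87.0, 88.8 and 96.9 CPM in antisense-labelled libraries, against 48.4, 60.9 and 50.3 CPM in the vector control (log2 fold change 0.77, SE 0.10). SLC7A1, the widely expressed carrier of the same amino acids, went the other way, with 169 ± 3.90 CPM in antisense-labelled libraries and 235 ± 20.2 CPM in the vector control (SD, n = 3 each; log2 fold change -0.47, SE 0.08).

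The sodium-coupled carriers of small neutral amino acids SLC38A1 and SLC38A2 are next to each other in gene order, and both rose. SLC38A2 (gene ID 54407), which cells raise when amino acids are short, had 467, 429 and 551 CPM in antisense-labelled libraries, against 313, 360 and 295 CPM in the vector control (log2 fold change 0.58, SE 0.11, edgeR adjusted p = 0.00186). SLC38A1 (gene ID 81539) had 451, 465 and 500 CPM in antisense-labelled libraries, against 288, 330 and 112 CPM in the vector control (log2 fold change 0.96, SE 0.32, edgeR adjusted p = 0.0304). Its groups were separate, but vector control library 4 lay far below the other two. Without that library the log2 fold change was 0.61 with edgeR adjusted p = 8.52e-04, while leaving out antisense-labelled library 2, 3 or 4 gave adjusted p = 0.0548, 0.0684 and 0.0648. SLC38A4, with 1 tested gene between it and SLC38A2, did not pass (log2 fold change -0.39, SE 0.39).

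**Figure D4:**
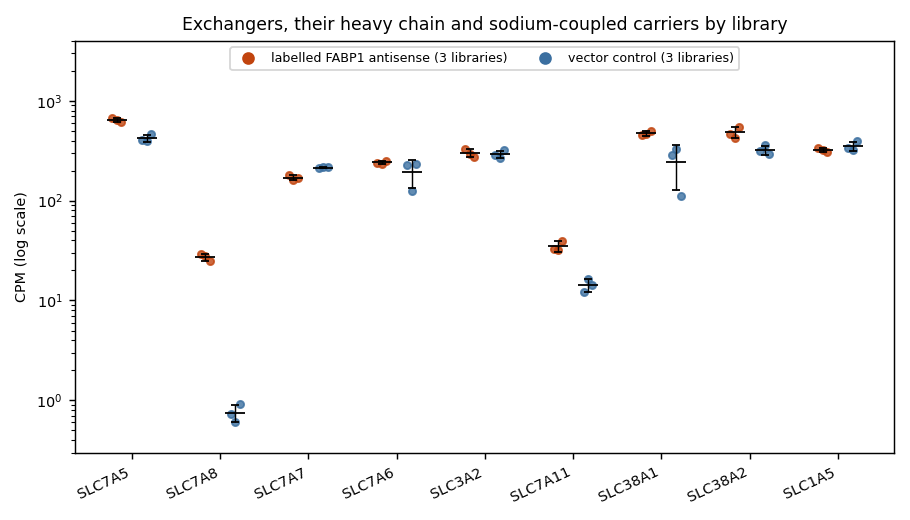
CPM (log axis) of the exchanger light chains, their heavy chain SLC3A2 and the sodium-coupled SLC38A1, SLC38A2 and SLC1A5 in each antisense-labelled library (orange, left) and each vector control library (blue), with mean and SD (black, n = 3). SLC7A8 is separated most; 1 vector control library lies low for SLC38A1 and another for SLC7A6.

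SLC1A4 and SLC1A5 encode exchangers of alanine, serine and related neutral amino acids, and only the first was called. SLC1A4 (gene ID 6509) had 6.39, 6.06 and 6.08 CPM in antisense-labelled libraries, against 13.5, 13.7 and 16.1 CPM in the vector control, or 2.33-fold lower with no overlap (log2 fold change -1.22, SE 0.10, edgeR adjusted p = 1.61e-05). SLC1A5 (gene ID 6510), the glutamine carrier of many tumour cells, had 337, 325 and 309 CPM in antisense-labelled libraries, against 338, 321 and 394 CPM in the vector control. Its groups overlapped and it did not pass (log2 fold change -0.12, SE 0.09, 95% interval -0.31 to 0.08, edgeR adjusted p = 0.277). SLC38A5, a glutamine carrier, was low at 0.589 ± 0.110 CPM in antisense-labelled libraries and 0.464 ± 0.210 CPM in the vector control (SD, n = 3 each) and did not pass.

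Of 7 carriers better known from other tissues, 2 rose, 2 fell and 3 did not pass. These shares, 28.6% each way, are near those of all genes tested. SLC6A6 (gene ID 6533), the carrier of the osmolyte taurine, had 130, 135 and 133 CPM in antisense-labelled libraries, against 81.9, 90.8 and 85.0 CPM in the vector control (log2 fold change 0.63, SE 0.07, edgeR adjusted p = 8.17e-05). SLC6A9 (gene ID 6536), a glycine carrier, had 14.9, 15.5 and 13.8 CPM in antisense-labelled libraries, against 10.1, 9.65 and 11.1 CPM in the vector control (log2 fold change 0.52, SE 0.09, edgeR adjusted p = 0.00139). Neither gene's groups overlapped. SLC6A9 shares exons with CCDC24 on the opposite strand, which had 4.66 to 6.17 CPM in antisense-labelled libraries and 3.70 to 4.88 CPM in the vector control and did not pass. The kidney and brain peptide carrier SLC15A2 (gene ID 6565) had 5.00, 3.76 and 4.23 CPM in antisense-labelled libraries, against 7.50, 7.91 and 7.36 CPM in the vector control (log2 fold change -0.81, SE 0.13, edgeR adjusted p = 8.58e-04). It thus fell with no overlap, while the intestinal peptide carrier SLC15A1 did not pass. Of the glial glutamate carriers, SLC1A2 was scarce, at 0.316, 0.246 and 0.178 CPM in antisense-labelled libraries, against 1.75, 1.67 and 1.07 CPM in the vector control (log2 fold change -2.62, SE 0.34). It passed the filter only through the vector control. SLC1A3 was abundant, at 182 ± 8.30 CPM in antisense-labelled libraries and 193 ± 17.3 CPM in the vector control (SD, n = 3 each), and did not pass. SLC38A3 and SLC38A4, glutamine and neutral amino acid carriers of liver, did not pass either (log2 fold change 0.16 and -0.39).

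Lysosomal and other intracellular carriers changed little. Of 6 tested, 2 rose, 2 fell and 2 did not pass (33.3% each way, near the shares of all genes tested), all with absolute log2 fold changes of at most 0.43. SLC38A9 (gene ID 153129), the lysosomal carrier that reports arginine to the mTORC1 kinase complex, had 43.5, 42.5 and 45.9 CPM in antisense-labelled libraries, against 36.2, 39.5 and 30.5 CPM in the vector control. The groups were separate, but the call (log2 fold change 0.31, SE 0.10, edgeR adjusted p = 0.0264) did not hold in 5 of the 6 fits with 1 library removed, namely all but the fit without vector control library 3 (adjusted p = 0.0539 to 0.0805). SLC38A7, a lysosomal glutamine carrier, averaged 30.4 ± 0.890 CPM in antisense-labelled libraries and 22.8 ± 1.02 CPM in the vector control (SD, n = 3 each; log2 fold change 0.41, SE 0.07). SLC38A10 fell by 0.43 on the log2 scale. SLC38A6 fell by 0.39, a call that was lost without antisense-labelled library 3 (edgeR adjusted p = 0.0604). SLC15A4, a lysosomal histidine and peptide carrier, and SLC36A4 did not pass (-0.10 and -0.17). Of 25 tested genes of amino acid sensing at the lysosome, 6 rose and 8 fell, with a median of -0.11. The shares, 24.0% higher and 32.0% lower, are near the 27.7% and 27.3% of all genes tested. CASTOR1, an arginine sensor at low level here, fell by 1.69. Among genes whose mean log2 CPM reached 1, the largest changes were rises of FNIP2 (means of 40.6 CPM in antisense-labelled libraries and 14.3 CPM in the vector control) and FNIP1 (log2 fold change 0.57), partners of folliculin, and of the Rag GTPase gene RRAGB (0.98), and a fall of the sestrin gene SESN1 (-0.57).

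Of the 4 mitochondrial carriers only SLC25A15 passed the test, and it fell. SLC25A15 (gene ID 10166), which exchanges ornithine and citrulline in the urea cycle, had 35.1, 31.7 and 33.3 CPM in antisense-labelled libraries, against 46.3, 49.2 and 52.3 CPM in the vector control (log2 fold change -0.56, SE 0.08, edgeR adjusted p = 4.07e-04), with no overlap. The glutamate carrier SLC25A22 averaged 33.8 ± 2.48 CPM in antisense-labelled libraries and 39.2 ± 2.82 CPM in the vector control (SD, n = 3 each), and its separate groups did not pass (log2 fold change -0.21, edgeR adjusted p = 0.0648). The aspartate-glutamate carriers SLC25A12 and SLC25A13 stood at log2 fold changes of -0.02 (SE 0.16) and 0.02 (SE 0.15), and SLC25A13 was the more abundant of the pair, at 47.6 CPM per kb against 1.52 in the vector control.

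Beyond the 41 genes, 14 of 34 further amino acid, peptide and related carriers in the table were tested, 4 of which rose (28.6%) and 5 fell (35.7%), with a median of -0.05. The creatine carrier SLC6A8 fell by 2.49 on the log2 scale and the betaine carrier SLC6A12 rose by 1.40, while SLC25A29, a mitochondrial carrier of basic amino acids, and PQLC2, a lysosomal one, fell by 1.40 and 1.12. Of 27 tested genes of the amino acid response, which the factor ATF4 switches on when amino acids are short, 11 rose (40.7%) and 7 fell (25.9%), with a median of 0.08. ATF4 itself, on the same list, fell by 0.22 on the log2 scale (SE 0.06, edgeR adjusted p = 0.0123). ALDH1L2, a mitochondrial folate enzyme, changed by 4.93, but passed the filter on low counts only through antisense-labelled libraries. KLHL24 changed by 1.48 and DDIT4, an mTORC1 inhibitor, by 1.04, whereas the lipoprotein receptor gene VLDLR fell by 2.36. Among members often counted as ATF4 targets, SLC7A11, SLC7A5 and SLC38A2 rose, SLC7A1 and SLC1A4 fell, and SLC3A2 and SLC1A5 did not pass, so these did not move together. The ATF4 motif core TGATGNAA was found on either strand in 2 of 35 member promoters, those of SLC1A3 and SLC7A1, and in 3.67% of all promoter windows. The HNF4 letters CAAAGTCCA and the HNF1 consensus were in 0 of 35 on either strand, against 0.355% and 0.0366% of all windows.

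To compare the members with their surroundings on the chromosome, each was set beside the tested genes next to it, up to 50 on either side. The neighbours' median ranged from -0.44 to 0.33, and 20 of 40 members lay above it and 20 below. SLC6A20 exceeded its neighbours' median by 5.43, SLC7A8 by 5.27, SLC3A1 by 2.72 and SLC6A19 by 1.89, and no neighbour of SLC6A20 or SLC7A9 was higher than they were. SLC6A9 rose by 0.52 in a stretch with a median of -0.44. For the smallest calls the neighbours had moved as far: SLC36A1 stood at 0.28 with a neighbours' median of 0.31, and SLC38A9 at 0.31 with 0.28. SLC38A2 stood at 0.58 with neighbours at 0.33, and among falls SLC25A15, SLC7A1 and SLC38A10 stood at -0.56, -0.47 and -0.43 with neighbours at -0.33, -0.30 and -0.31.

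**Figure D5:**
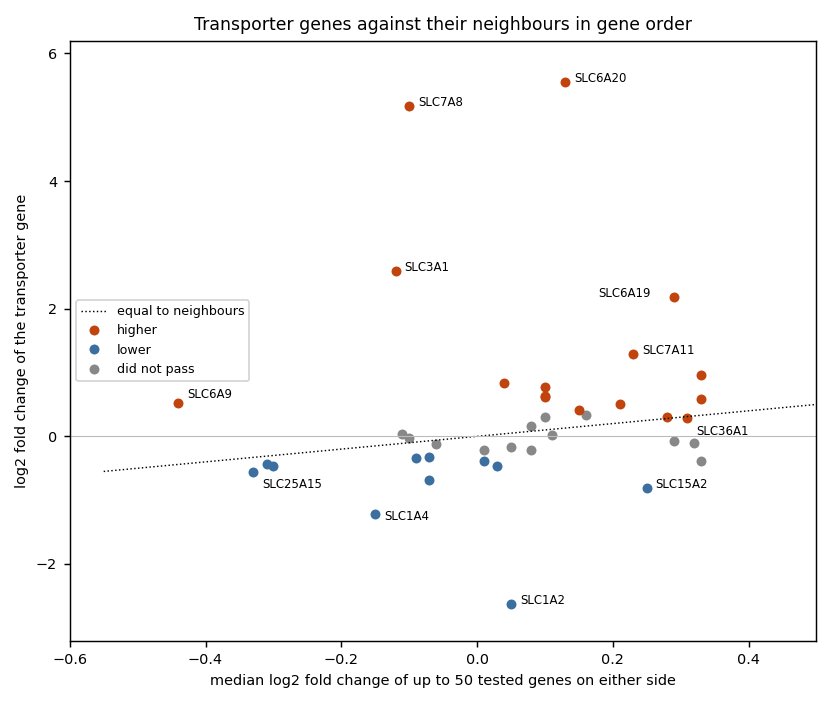
Log2 fold change of each tested transporter gene (vertical axis) against the median log2 fold change of up to 50 tested genes on either side (horizontal axis), with the dotted line where the values are equal. SLC6A20, SLC7A8 and SLC3A1 lie far above the line, while SLC36A1 (0.28 against 0.31) lies on it.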

How the data were processed

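RNA of Caco-2 cells was extracted with TRIzol and made into TruSeq Stranded mRNA libraries, per the labels' protocols. GRCh37, HISAT2 2.1.0, StringTie 1.3.4d, Bowtie2 2.3.4.1, Trimmomatic 0.38 and bcl2fastq are listed without roles, per the submitters' processing notes. No source used here gives the counter or its strand setting. Opposite-strand genes share exons with 14 members in GENCODE, and reads there could not be assigned. The values used are whole-number read counts, deposited by the authors without normalization, 1 per gene in each library. Columns matched groups only, by header name, and 12 further per-library columns were not used.

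Counts were filtered with filterByExpr, scaled by TMM and tested with edgeR 4.0.16 (quasi-likelihood, R 4.3.3), with Benjamini-Hochberg adjustment over 14640 genes and a threshold of 0.05. The filter asks for 0.227 CPM in 3 libraries, and 38 members met it in both groups. A standard error is the absolute log2 fold change over the square root of F. No pair of libraries agreed within sampling noise (chi-square of 13.6 to 39.3 per degree of freedom within groups). Floors cover counting error only.

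Members, gene lists and tests were chosen with earlier results of these data known. Full values are given for the 16 tested members of largest absolute log2 fold change at a mean log2 CPM of at least 1 and for fixed key carriers. SLC7A6 and SLC1A2 were described after their values were seen. Context lists are given by counts with up to 4 genes of largest change at the same minimum level, some of which are not reported here, and CDX2, PREPL, CCDC24, ATF4, CASTOR1, CSF1R and COL1A1 were added after their values were seen. Transcript lengths are from GENCODE 29 through RefSeq accessions (41 members matched). Promoters (35 matched) and gene order (99.7% of tested genes placed) are from RefSeq on GRCh38.p14. Alternatives were other scaling, filters, DESeq2 1.42.0, a block on column numbers, and leaving out each library. The test was tried on simulated counts first. Figures and sequence steps used Python 3.11.15.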

Additional observations from a re-analysis of the deposited data

How the results depend on the processing

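Over 12 alternatives, 458 of 478 member results kept their direction and side of the threshold, 14 lost the call and 6 changed sign. The 6 were of genes that passed in none of the fits: with 1 library left out, SLC3A2 ranged from -0.04 to 0.10, SLC25A13 from -0.16 to 0.13 and SLC25A12 from -0.15 to 0.10 on the log2 scale. The 14 concerned SLC38A9, SLC36A1, SLC38A1, SLC43A1 and SLC38A6. Members called higher numbered 16 with DESeq2 size factors, library size only, no filter and DESeq2's own test, and 15 at 1 CPM or more in 3 libraries, which left SLC6A19 and SLC38A5 untested. Members called lower were 11 in each of these. Leaving out 1 library gave 13 to 16 higher and 10 to 11 lower, with 6983 to 8059 genes called over the whole table against 8054. FABP1 passed in none of the 12, with log2 fold changes of 0.05 to 0.27. A replicate block on the column numbers gave 15 members higher, 11 lower and 6661 genes called, and SLC38A9 lost its call (adjusted p = 0.0654). The labels do not state whether these numbers pair the samples, and the headers count 2 to 4 where the titles count 1 to 3. Deviations from the group means correlated at 0.04, -0.15 and -0.25 between libraries of the same number. With 3 libraries in each group, these values cannot settle the pairing. With 25 neighbours on either side, 20 members again lay above their neighbours. Of the 10 members highest per kb in antisense-labelled libraries, 9 stayed among the 10 highest with median transcript lengths, and 7 in the vector control. At low depth, values of SLC6A19, SLC1A2, SLC38A4 and SLC38A5 rest on few counts.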

Other observations

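Library values that stood apart within a group were looked at among 6372 tested genes whose mean log2 CPM reached 5. In each library, 0.549 to 0.691% of these genes lay more than 1.5-fold above or below both other libraries of the group. SLC7A6 in vector control library 3 and SLC38A1 in vector control library 4 were the members among them, and both were low there. SLC7A6OS, which overlaps SLC7A6 on the opposite strand, had 24.4 to 26.2 CPM in antisense-labelled libraries and 26.3, 24.6 and 25.6 CPM in vector control libraries 2, 3 and 4. SLC38A2, next to SLC38A1, had 295 CPM in vector control library 4 against 313 and 360 CPM in the others. PREPL also varied within both groups, from 53.5 to 83.3 CPM in antisense-labelled libraries and from 51.7 to 98.7 CPM in the vector control.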
